A study of Mus musculus with 4 samples.

Results

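Iron recycling and export in the marrow was followed through 10 genes picked by name: Slc40a1, Hamp, Tfrc, Slc11a1, Slc11a2, Steap3, Fth1, Ftl1, Hmox1 and Ireb2. Of these, 9 had a probe set annotated to exactly 1 gene symbol, out of 19938 genes measured in this way, and Slc11a1 was not analysed here. The RNA was that of whole bone marrow cells, taken from C57BL/6N mice 8 h after a single intraperitoneal injection. In the LPS group (replicates 1 and 2) the mice received 50 µg lipopolysaccharide (LPS), a glycolipid of the cell wall of Gram-negative bacteria, prepared from E. coli K12 and S. minnesota. In the PBS group (replicates 1 and 3) they received phosphate-buffered saline. The labels give neither age nor sex of the mice and do not say whether a sample came from 1 mouse or a pool, so the spread between replicates may be partly technical. Each sample was hybridised to 1 GeneChip Mouse Gene 1.0 ST array, and levels are the deposited log2 values, on which a difference of 1 is a 2-fold change.

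Most iron in the body circulates in a closed loop. Macrophages of marrow, spleen and liver take up old or damaged red cells, open the haem ring with haem oxygenase, keep part of the iron in ferritin and return the rest to plasma through ferroportin. Erythroblasts in the marrow take it up again with transferrin and use it for haemoglobin. In inflammation, hepcidin, a peptide made mainly by the liver, binds ferroportin and has it degraded, and transcription of the ferroportin gene in macrophages can fall as well, so that iron is withheld from plasma. Inside cells, iron regulatory proteins bind the mRNAs of ferritin, ferroportin and the transferrin receptor and set their translation or stability, a layer that an expression array reads only as far as mRNA levels change.

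The array medians over genes lay between 8.01 and 8.03, and arrays correlated across genes at 0.997 (LPS pair), 0.995 (PBS pair) and 0.988 to 0.990 (between groups). Over all 19938 genes the median log2 difference, LPS minus PBS, was -0.01. Differences were tested with limma over all of these genes, and a gene was called at a Benjamini-Hochberg adjusted p under 0.05. By this rule 3.66% of all genes were called, 2.39% as higher and 1.27% as lower in LPS marrow, and the values of the LPS and PBS groups did not overlap in 44.9% of all genes.

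Among the 9 iron genes, 1 was lower and 0 were higher after LPS. The lower gene was Slc40a1, the ferroportin gene. At an unadjusted p under 0.05 the limma counts were 3 lower (Slc40a1, Ftl1 and Hamp) and 0 higher, where 8.69% of all genes were lower and 7.11% higher by that rule (15.8% in either direction). The groups did not overlap in 5 of the 9 genes (Slc40a1, Hamp, Fth1, Ftl1 and Hmox1), beside 44.9% of all genes. The median difference of the 9 was -0.07 (-0.04 when PBS replicate 1 was left out, -0.12 when PBS replicate 3 was, and -0.03 without dim genes). The differences of the other 8 lay between -0.36 (Hamp) and 0.21 (Fth1).

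**Figure D1:**
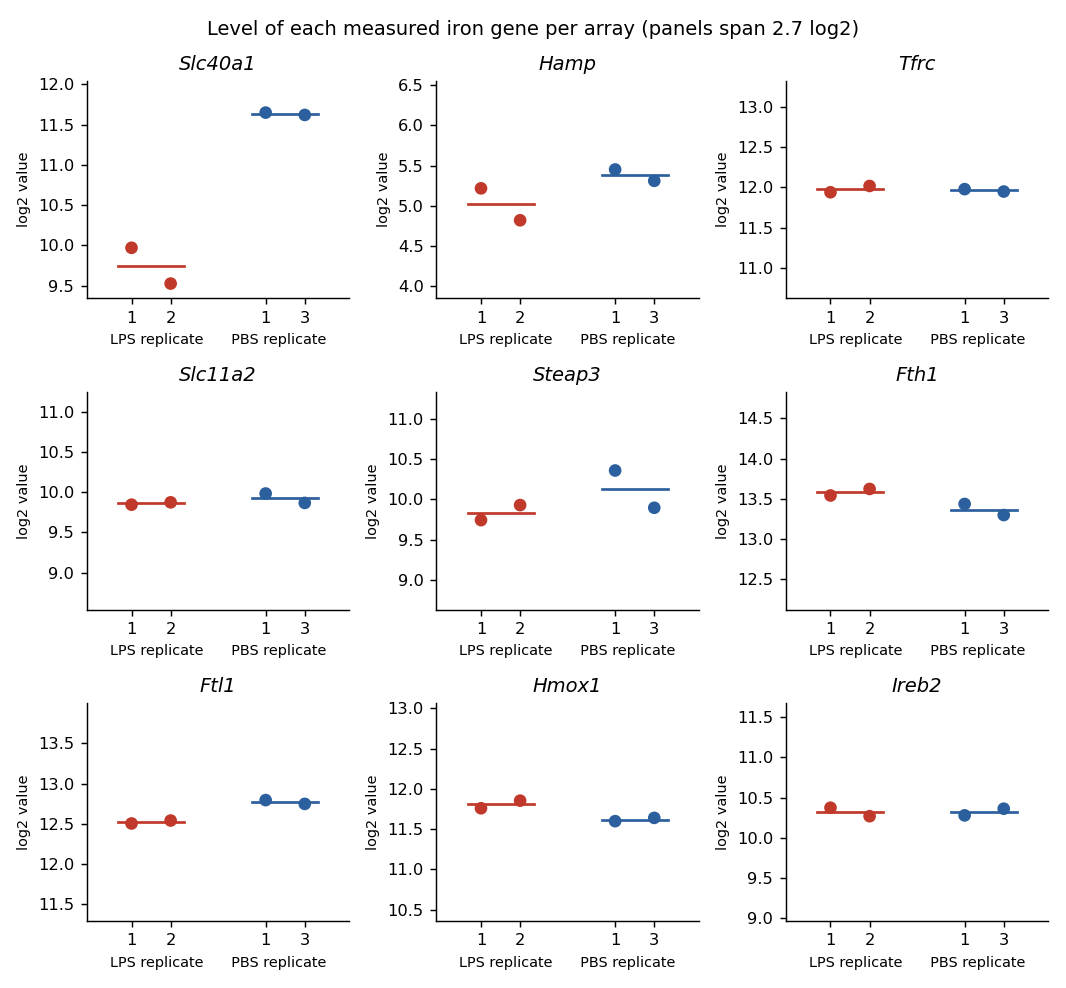
Level of each measured iron gene on each array, as the deposited log2 value (y axis, the same span in every panel), for the LPS replicates (red, left) and the PBS replicates (blue, right); lines are group means of 2 arrays. Slc40a1 stands at 9.97 and 9.53 in LPS marrow against 11.65 and 11.62 in PBS marrow. The points of Tfrc, Slc11a2, Steap3 and Ireb2 overlap between the groups.

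Slc40a1 encodes ferroportin, the only known exporter of iron from mammalian cells. It had log2 values of 9.97 and 9.53 in LPS replicates 1 and 2, against 11.65 and 11.62 in PBS replicates 1 and 3. Both LPS arrays were far below both PBS arrays, and the LPS arrays lay further apart than the PBS arrays. The means were 9.75 ± 0.31 in LPS marrow and 11.64 ± 0.02 in PBS marrow (SD, n = 2 each). The log2 difference was -1.89 (SE 0.143, 95% interval -2.22 to -1.55), so that the level in LPS marrow was 0.27 times that in PBS marrow, with a limma adjusted p of 0.000313. Only 3 of the 19938 genes had a more negative difference. With 2 arrays against 2, an exact two-sided permutation test cannot give a p below 0.333, and the ordinary linear model, which estimates each gene's spread from its own 4 values, gave an adjusted p of 0.369 for Slc40a1. In whole marrow, fewer cells of a type and less RNA per cell cannot be told apart.

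**Figure D2:**
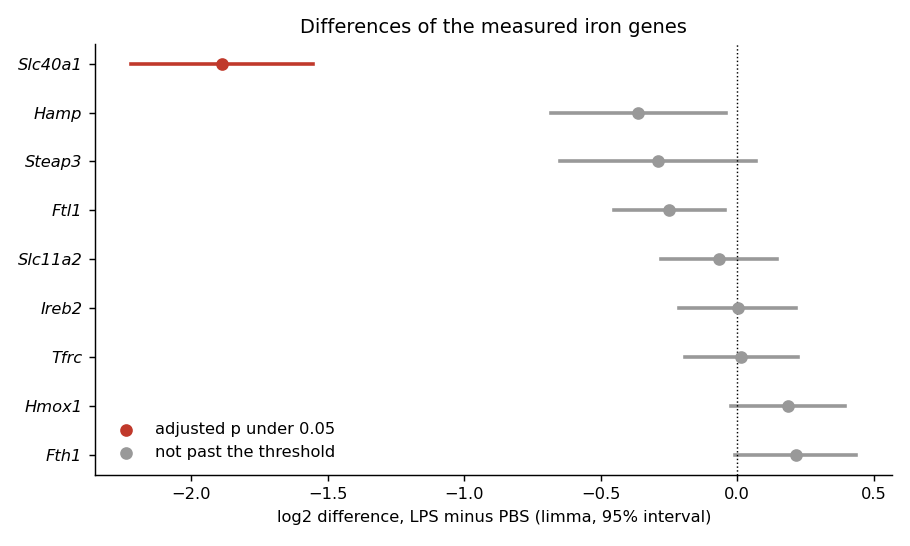
Log2 difference, LPS minus PBS, of each measured iron gene (points, x axis) with its 95% limma interval (lines), ordered from the most negative at the top. The interval of Slc40a1 runs from -2.22 to -1.55 and lies apart from those of the other 8 genes, none of which passed the threshold.

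Cells that carry Slc40a1 in marrow include the macrophages at the centre of erythroblastic islands, so markers of marrow macrophages are given beside it. Of 14 such markers, 4 were lower and 2 higher in LPS marrow, where 1.27% of all genes were lower and 2.39% higher. Their median difference was -0.21. Leaving out 1 array gave -0.11 (PBS replicate 1), -0.13 (LPS replicate 2), -0.27 (LPS replicate 1) and -0.31 (PBS replicate 3). The lower ones were Cd163 (-2.41, adjusted p = 1.91e-05), the receptor for haemoglobin bound to haptoglobin, Mrc1 (-1.72, adjusted p = 5.71e-05), the mannose receptor, Vcam1 (-0.79, adjusted p = 0.00309), an adhesion molecule that holds erythroblasts, and Mertk (-0.54, adjusted p = 0.0317, and 0.158 without LPS replicate 2), a receptor for dying cells. The higher ones were Spic and Adgre1. Adgre1 encodes a surface antigen of mouse macrophages and differed by 0.56 (adjusted p = 0.0286, and 0.055 or 0.0912 when PBS replicate 1 or LPS replicate 1 was left out). The linear levels of the 14 markers, in units of 1000, summed to 15.8 and 14.6 on the LPS arrays and to 17.4 and 17.6 on the PBS arrays.

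The other 8 markers were not called. They include the C1q genes, which encode subunits of a complement protein made by tissue macrophages and are named here after their values were seen. C1qa differed by -0.17 (95% interval -0.38 to 0.05), C1qb by 0.06 (-0.15 to 0.27) and C1qc by -0.40 (-0.60 to -0.20, adjusted p = 0.051). At an unadjusted limma p under 0.05, 3 of the 14 markers were higher and 6 lower, beside 7.11% and 8.69% of all genes. The markers thus went in both directions, and the part of a change in macrophage number in the fall of Slc40a1 was not tested.

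**Figure D3:**
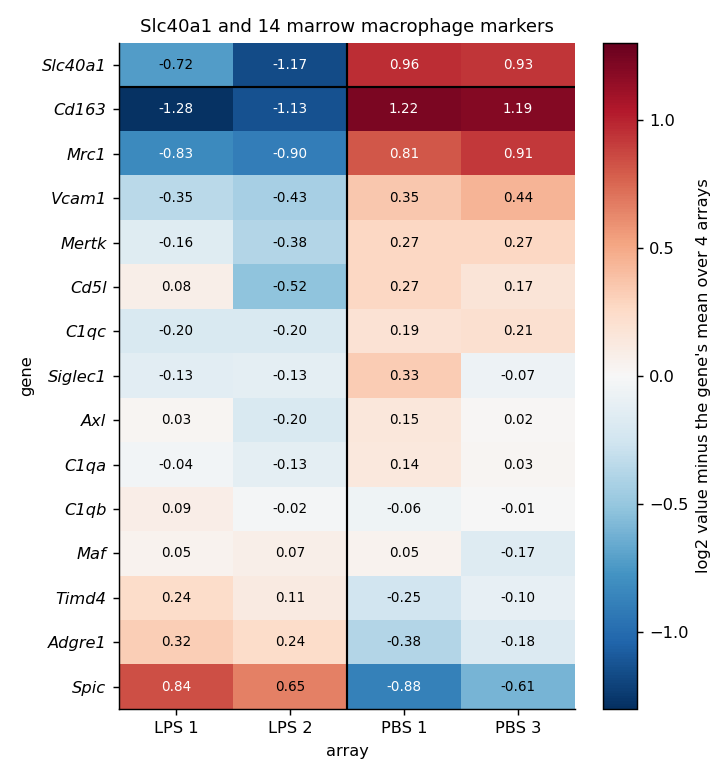
Log2 value minus the gene's own mean over the 4 arrays (colour and printed number) for Slc40a1 (top row) and 14 marrow macrophage markers, ordered by their difference, with LPS arrays left and PBS arrays right. Cd163 and Mrc1 are low on both LPS arrays as Slc40a1 is, and Adgre1 and Spic run the other way.

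The 5 genes whose 4 array values, each taken relative to the gene's own mean, lay closest to those of Slc40a1 were Clec7a, Mrc1, Cmbl, Ccr3 and Cd209a. Their Euclidean distances to Slc40a1 ran from 0.18 (Clec7a) to 0.42 (Cd209a) log2 over 4 arrays. Clec7a, Mrc1 and Cd209a encode lectin receptors of macrophages or dendritic cells, Ccr3 a chemokine receptor of eosinophils and Cmbl a hydrolase. Their log2 differences were -1.81, -1.72, -2.02, -1.59 and -1.61 in the order Clec7a, Mrc1, Cd209a, Ccr3 and Cmbl. With 4 arrays in 2 groups, any gene with a fall of this size and close replicates comes out near Slc40a1.

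Hamp encodes hepcidin, the peptide that binds ferroportin. Mice carry a second copy, Hamp2, next to it, and the promoter sequences of both are shown because the interleukin-6 signal reaches hepcidin genes through a STAT3 site just before the gene start. These are the 250 bases before the start, from RefSeq on GRCm38.p6, minus strand, at chr7:30944030-30944279 for Hamp and chr7:30924182-30924431 for Hamp2. Capitals mark matches to TTCTTGGAA, the STAT3 site known from hepcidin promoters, and to GGCGCC, the core of the element that answers bone morphogenetic proteins.
Hamp: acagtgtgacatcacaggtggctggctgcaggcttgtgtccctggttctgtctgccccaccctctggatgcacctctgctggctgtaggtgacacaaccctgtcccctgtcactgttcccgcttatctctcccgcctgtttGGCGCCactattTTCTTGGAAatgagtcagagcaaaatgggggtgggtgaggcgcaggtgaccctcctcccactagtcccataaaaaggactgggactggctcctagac
Hamp2: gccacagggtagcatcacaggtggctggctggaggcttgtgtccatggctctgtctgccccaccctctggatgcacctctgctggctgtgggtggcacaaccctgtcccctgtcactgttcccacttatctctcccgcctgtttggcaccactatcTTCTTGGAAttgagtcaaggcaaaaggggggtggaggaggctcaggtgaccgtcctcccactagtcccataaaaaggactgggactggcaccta

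The windows were identical at 227 of 247 aligned positions (91.9%). TTCTTGGAA lay 97 to 89 bases before the start of Hamp and 94 to 86 bases before that of Hamp2. GGCGCC lay 109 to 104 bases before the start of Hamp, and these letters are not in the window of Hamp2. Both strands were searched, the motifs did not overlap, and GGCGCC reads the same on both strands. Among 32851 promoter windows of this length, 0.365% hold TTCTTGGAA and 9.59% hold GGCGCC. Of the measured iron genes other than Hamp, 5 had a window in the table (Tfrc, Steap3, Fth1, Ftl1 and Ireb2), and none of their windows holds TTCTTGGAA.

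Hamp was at a low level on every array. Its log2 values were 5.22 and 4.82 in LPS marrow, against 5.45 and 5.31 in PBS marrow, and each was under the 25th percentile of its array (6.66 to 6.72). Both LPS values were below both PBS values, and LPS replicate 1 lay closer to PBS replicate 3 than to LPS replicate 2. The difference was -0.36 (SE 0.138, 95% interval -0.68 to -0.04) and was not called (limma adjusted p = 0.253). No background level was available for the probe sets, so these values may be close to what an absent transcript gives. Hamp2 had 7.77 and 8.04 in LPS marrow, against 7.83 and 7.84 in PBS marrow, and its difference of 0.06 (95% interval -0.19 to 0.32) was not called either.

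Regulators of hepcidin were measured in the same marrow. A list of 26 genes for hepcidin and its regulators includes Hamp and Hamp2. At an unadjusted limma p under 0.05, 6 of the 26 were higher and 6 lower, beside 7.11% and 8.69% of all genes. At an adjusted p under 0.05, 4 were higher and 1 was lower, beside 2.39% and 1.27% of all genes, with a median of 0.04. When 1 array was left out, 2 to 5 were higher and 0 to 3 lower, and the median lay between -0.01 (without LPS replicate 2) and 0.04. Il6, the cytokine that drives hepcidin in the inflamed liver, averaged 6.48 ± 0.04 in LPS marrow and 5.02 ± 0.03 in PBS marrow (SD, n = 2 each; difference 1.46, adjusted p = 9.56e-05), levels under the 25th percentile of genes in both groups. Socs3, a STAT3 target that dampens the same signal, differed by 0.92 (adjusted p = 0.00103). It has several probe sets, and with their mean in place of the brightest the difference was 0.40 (adjusted p = 0.0521). Genes of the bone morphogenetic protein arm went both ways: Bmp6, a ligand that induces hepcidin, fell by 0.75 (adjusted p = 0.0262, and 0.0527 without LPS replicate 1). Id1 (0.44, adjusted p = 0.0448), a target of these ligands, and Smad1 (0.44, adjusted p = 0.0447), which carries their signal to the nucleus, were higher by a small margin. Neither of these passed without PBS replicate 1 (0.109 and 0.0919), without LPS replicate 1 (0.149 and 0.0897) or without LPS replicate 2 (0.156 and 0.227).

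Markers of hepatocytes, the main source of hepcidin, were low. None of 7 was called (limma, 0 also at an unadjusted p under 0.05), their differences ran from -0.12 to 0.04, and their linear levels, in units of 1000, summed to 0.555 and 0.598 in LPS marrow and to 0.613 and 0.586 in PBS marrow. The brightest were Apoa1 (7.43 and 7.66 in LPS marrow, 7.78 and 7.55 in PBS marrow) and Ahsg (6.39 and 6.48 in LPS marrow, 6.45 and 6.55 in PBS marrow), both of which encode plasma proteins.

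None of the 3 measured uptake genes among the 9 was called. Tfrc encodes the transferrin receptor, through which erythroblasts and dividing cells take in iron. Its log2 values were 11.94 and 12.02 in LPS marrow, against 11.98 and 11.95 in PBS marrow. The 4 arrays interleaved, and the difference was 0.02 with a 95% interval from -0.19 to 0.22 (adjusted p = 0.97). As a fold change, the interval reached from 1.14-fold lower to 1.17-fold higher. Trf, the gene of its ligand transferrin, had 10.73 and 10.99 in LPS marrow, against 11.23 and 11.14 in PBS marrow, a difference of -0.32 that was not called (adjusted p = 0.203).

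Slc11a2 encodes DMT1, which moves ferrous iron out of the endosome after transferrin has let go of it. It had 9.84 and 9.87 in LPS marrow, against 9.98 and 9.87 in PBS marrow. LPS replicate 2 and PBS replicate 3 had nearly the same value, and the difference was -0.07 (95% interval -0.28 to 0.15, adjusted p = 0.828). Its relative Slc11a1 (NRAMP1), a metal transporter of the phagosome, is known to carry a loss-of-function allele in C57BL/6 mice.

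Steap3, the endosomal reductase that prepares iron for DMT1 in erythroid cells, depended on a single PBS array. Its values were 9.74 and 9.93 in LPS marrow, against 10.36 and 9.90 in PBS marrow. PBS replicate 1 stood above the other 3 arrays, and LPS replicate 2 lay above PBS replicate 3. The difference was -0.29 (SE 0.154, 95% interval -0.65 to 0.07, adjusted p = 0.424). It was -0.06 without PBS replicate 1, and -0.52 with an adjusted p of 0.0343 without PBS replicate 3.

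Erythroid markers were also highest in PBS replicate 1. The mean log2 value of 12 such markers was 11.09 and 11.15 in LPS marrow, against 11.41 and 11.22 in PBS marrow. All 12 differences were negative, from -0.31 to -0.08, with a median of -0.19 (-0.08 without PBS replicate 1 and -0.29 without PBS replicate 3). By limma 0 were called. At an unadjusted p under 0.05, 3 were lower and 0 higher, beside 8.69% and 7.11% of all genes. The brightest, Slc4a1, an anion exchanger of red cells, and Alas2, the first enzyme of erythroid haem synthesis, differed by -0.18 and -0.14. Linear levels of the 12, in units of 1000, summed to 34.0 and 35.9 in LPS marrow and to 42.3 and 37.7 in PBS marrow. Within each array, Steap3 minus the mean of these markers was -1.35 and -1.22 in LPS marrow, against -1.05 and -1.32 in PBS marrow, so the groups overlapped and differed by -0.10 (exact permutation p = 0.667).

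The ferritin genes, whose products form the shell that stores iron, differed in opposite directions by small amounts. Fth1, the heavy chain with the ferroxidase site, had 13.54 and 13.62 in LPS marrow, against 13.44 and 13.30 in PBS marrow. Ftl1, the light chain that helps iron mineralise, had 12.50 and 12.54 in LPS marrow, against 12.79 and 12.75 in PBS marrow. Both LPS arrays were above both PBS arrays for Fth1 and below them for Ftl1. The difference of Fth1 was 0.21 (SE 0.095, 95% interval -0.01 to 0.44, adjusted p = 0.33), and that of Ftl1 was -0.25 (SE 0.087, 95% interval -0.45 to -0.05, adjusted p = 0.211). Neither was called.

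Ferritin light chain has many near-identical copies in the mouse genome, so which copy a probe set reads is uncertain. Another 4 probe sets name Ftl1 together with 2 microRNA genes. Their differences were -0.23, -0.24, -0.25 and -0.39, all in the direction of the probe set that names Ftl1 alone, and in a fit over all 35556 probe sets none of the 5 was called (adjusted p from 0.17 to 0.398). The probe sets share target sequence and are not independent measurements. Within each array, Fth1 minus Ftl1 was 1.04 and 1.08 log2 in LPS marrow, against 0.64 and 0.55 in PBS marrow. These means of 1.06 ± 0.03 and 0.60 ± 0.06 (SD, n = 2 each) differed by 0.46. The groups did not overlap, which follows from the separate ranges of Fth1 and Ftl1 given above. The exact permutation p of 0.333, the smallest possible, follows from it too and adds no support. This contrast and that of Steap3 with the erythroid markers were formed after the values had been seen.

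**Figure D4:**
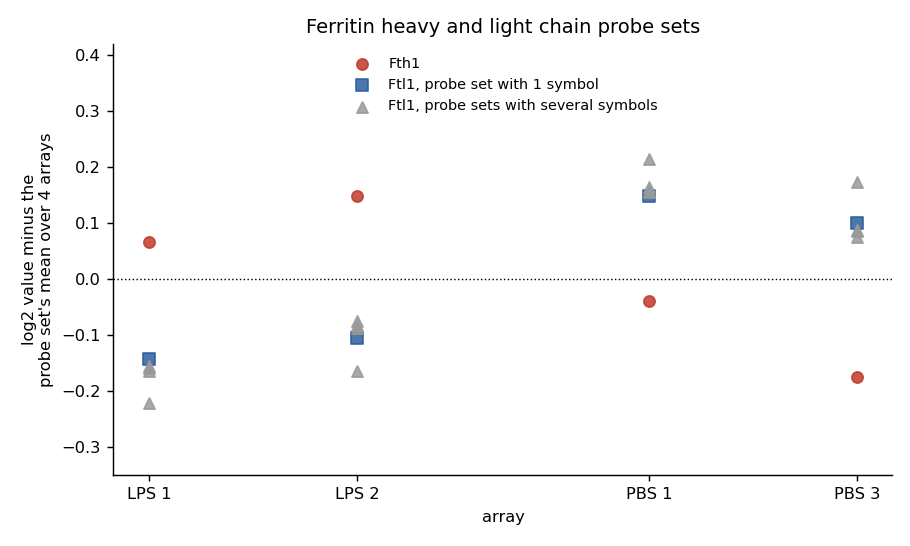
Log2 value minus the probe set's own mean over the 4 arrays (y axis) for the Fth1 probe set (red circles), the Ftl1 probe set with 1 symbol (blue squares) and the 4 Ftl1 probe sets with several symbols (grey triangles), on the LPS arrays (left) and the PBS arrays (right). Fth1 is above its mean in LPS marrow and all 5 Ftl1 probe sets are below theirs, with differences of 0.21 for Fth1 and -0.23 to -0.39 for Ftl1.

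Ncoa4, the receptor that carries ferritin to the lysosome for release of its iron, had 11.83 on both LPS arrays, against 12.06 and 12.11 in PBS marrow (difference -0.26, adjusted p = 0.195). In the list of 7 genes for iron storage, iron chaperones and ferritin turnover, 0 were called by limma, and the median was -0.06. At an unadjusted p under 0.05, 0 were higher and 2 lower, beside 7.11% and 8.69% of all genes.

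Hmox1 encodes the inducible haem oxygenase that frees iron from haem. It had 11.76 and 11.85 in LPS marrow, against 11.60 and 11.64 in PBS marrow. Both LPS arrays were above both PBS arrays. The difference was 0.19 (SE 0.0897, 95% interval -0.02 to 0.40, adjusted p = 0.372) and was not called. The transcription factors known to control Hmox1 had differences near 0: its activator Nfe2l2 (NRF2) had 0.00 (95% interval -0.28 to 0.29) and its repressor Bach1 had -0.01 (-0.22 to 0.19). The protein level and activity of these factors were not measured here. A list of 14 NRF2 pathway genes includes Hmox1, Nfe2l2 itself and Keap1. Of these 14, 0 were higher and 1 was lower by limma, beside 2.39% and 1.27% of all genes. At an unadjusted p under 0.05, 1 was higher and 2 were lower, beside 7.11% and 8.69% of all genes. The median was 0.00, and it lay between -0.07 and 0.03 when 1 array was left out. The called gene was Nqo1, a quinone reductase, with 7.77 and 7.72 in LPS marrow, against 8.48 on both PBS arrays (difference -0.74, adjusted p = 0.00318).

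Ireb2 encodes iron regulatory protein 2, which binds iron-responsive elements when cells are short of iron. Its values were 10.38 and 10.27 in LPS marrow, against 10.28 and 10.36 in PBS marrow. The groups overlapped fully, and the difference was 0.00 (95% interval -0.21 to 0.22, adjusted p = 0.999). Aco1, which encodes the other iron regulatory protein, differed by -0.18 (adjusted p = 0.384). Fbxl5, the iron-sensing ubiquitin ligase subunit that targets Ireb2 protein for degradation, differed by 0.27 (adjusted p = 0.205). None of these 3 was called.

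Further genes of iron and haem handling were called in lists whose medians lay between -0.17 (export) and 0.01 (binding outside cells). Counts are to be read beside the 2.39% of all genes called higher and the 1.27% called lower. In the list of 14 genes for haem and haemoglobin recycling, which includes Hmox1, 2 were higher and 1 was lower, with a median of -0.05. Cd163, given above, was the lower one, with 6.42 and 6.57 in LPS marrow, against 8.92 and 8.89 in PBS marrow. The LPS values lie under the 25th percentile of genes, so the size of this fall is uncertain. Spic, a transcription factor needed for the macrophages of the splenic red pulp that recycle iron, had 10.88 and 10.70 in LPS marrow, against 9.16 and 9.44 in PBS marrow. It was 2.81-fold higher (log2 difference 1.49, SE 0.12, adjusted p = 0.000435), while Slc40a1 was lower on the same arrays. Hp encodes haptoglobin, the plasma protein that binds free haemoglobin, and had 12.57 and 12.77 in LPS marrow, against 11.82 and 11.92 in PBS marrow (difference 0.80, adjusted p = 0.00531).

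Among 14 genes for iron uptake and endosomal release, the list that holds Tfrc, Slc11a2 and Steap3, 2 were higher and 0 lower by limma. At an unadjusted p under 0.05, 4 were higher and 3 lower, beside 7.11% and 8.69% of all genes. The median was -0.08. Steap4, a metal reductase related to Steap3, had 10.48 and 11.09 in LPS marrow, against 9.51 and 9.79 in PBS marrow (difference 1.14, adjusted p = 0.0198). Slc39a14, an importer of zinc and of iron not bound to transferrin, had 8.78 and 8.86 in LPS marrow, against 7.77 and 7.89 in PBS marrow (difference 0.99, adjusted p = 0.00103). Both genes were above their PBS range on both LPS arrays.

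In the export list of 4 genes, Slc40a1 was lower and Cp was higher, with a median of -0.17. That median was -0.25 when PBS replicate 1 was left out (2 genes lower), -0.08 when PBS replicate 3 was, and -0.33 without dim genes. Cp encodes ceruloplasmin, a copper oxidase that acts on iron as it leaves ferroportin. It had 11.19 and 11.16 in LPS marrow, against 9.59 and 10.31 in PBS marrow, where the arrays lay further apart than in LPS marrow. The difference was 1.22 (SE 0.204, adjusted p = 0.0186). When every probe set entered the fit, neither Cp (adjusted p = 0.125) nor Steap4 (0.128) passed.

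Of 7 genes for binding of iron, haem or siderophores outside cells, 1 was higher, namely Hp, and 0 were lower by limma. At an unadjusted p under 0.05, 2 were higher and 2 lower, beside 7.11% and 8.69% of all genes. The median was 0.01. Lcn2, which captures bacterial siderophores and is a granule protein of neutrophils, had 13.77 and 13.76 in LPS marrow, against 13.74 and 13.77 in PBS marrow (difference 0.01, 95% interval -0.19 to 0.21).

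**Figure D5:**
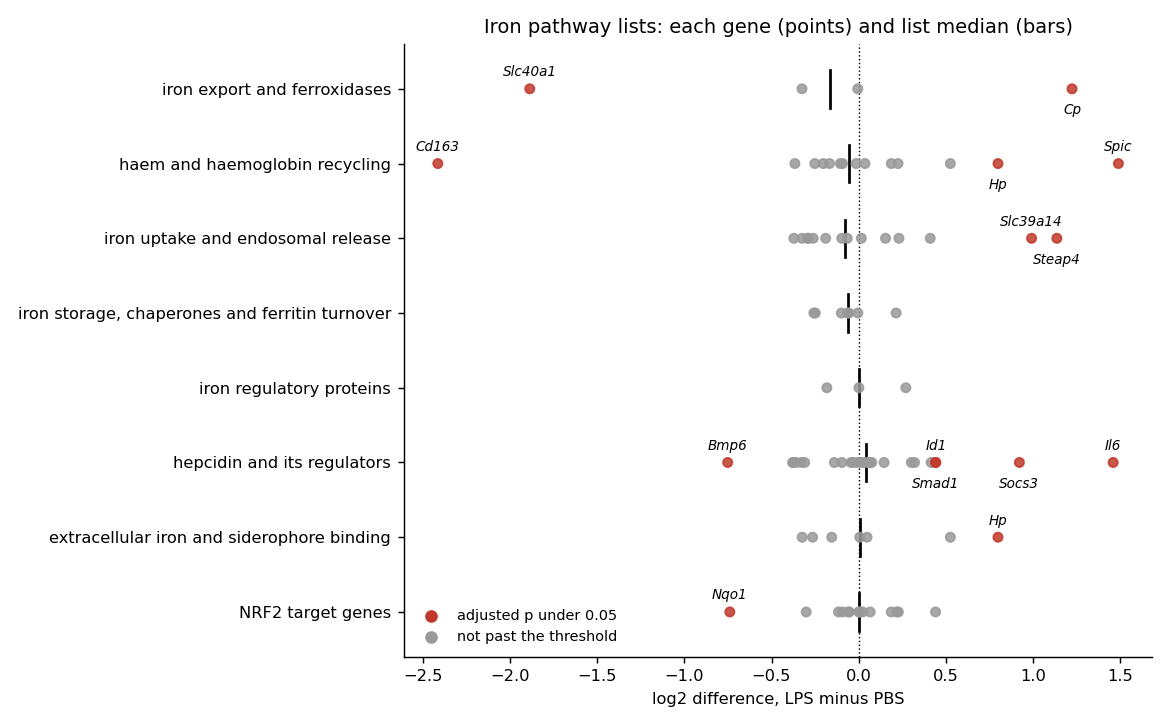
Log2 difference, LPS minus PBS (x axis), of every measured gene in 8 iron and NRF2 lists (points; red where the limma adjusted p was under 0.05, with the gene named) and the median of each list (black bars). Most points lie close to 0 and all medians lie between -0.17 and 0.04, with Cd163 and Slc40a1 far to the left and Spic, Il6, Cp and Steap4 to the right.

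Other cell types of marrow are given for comparison with the iron genes. Their counts are to be read beside the 2.39% of all genes called higher and the 1.27% called lower. Of 10 neutrophil markers, 2 were lower, Ly6g (-1.14, adjusted p = 0.00935) and Retnlg (-0.76, adjusted p = 0.0171), and 0 higher. The median of the 10 was -0.22. Leaving out 1 array gave -0.09 (LPS replicate 2), -0.14 (PBS replicate 1), -0.28 (PBS replicate 3) and -0.29 (LPS replicate 1). Of 7 monocyte markers, 1 was higher, Ms4a6c (0.49, adjusted p = 0.0442, and between 0.0807 and 0.162 when PBS replicate 1, LPS replicate 1 or LPS replicate 2 was left out). The monocyte median of -0.04 had no stable sign: it was -0.15 and -0.18 when replicate 1 of LPS or of PBS was left out, and 0.07 and 0.10 when LPS replicate 2 or PBS replicate 3 was. Of 7 B-cell markers 0 were called by limma (0 at an unadjusted p under 0.05), and their median was -0.13 (0.09 without LPS replicate 1, and -0.35 without LPS replicate 2). The brightest of these, Cd79b and Cd79a, which encode the signalling chains of the B-cell receptor, differed by -0.13 and -0.15, with LPS replicate 1 below the other 3 arrays. When every probe set entered the fit, the calls of Adgre1, Mertk, Bmp6, Id1, Smad1, Ly6g, Retnlg and Ms4a6c did not pass, at adjusted p from 0.082 to 0.158. The part of such shifts in the differences of the iron genes was not tested.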

How the data were processed

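Marrow RNA of 4 samples was measured on 1 array each. The deposited table holds log2 expression values for probe sets. The authors used RMA, per the submitters' processing notes; this method corrects background, quantile-normalizes the arrays and summarises probes by median polish. The RMA version is not given in the sources used here. Values from 2.76 to 14.52 fit a log2 scale. Dim genes were kept, and the number of arrays limits the precision.

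Of 35556 probe sets, 21789 had 1 symbol in the platform annotation, 1621 had several and 12146 had no gene named here. The brightest probe set stood for a gene (999 genes had several), which left 19938 genes. LPS and PBS were compared with limma 3.58.1 in R 4.3.3 (lmFit, eBayes, two-sided, 2 residual and 5.59 prior degrees of freedom), with Benjamini-Hochberg adjustment over all genes. The fit was tested on simulated data. These were drawn from the fit's own variance model, so they could not test whether real arrays follow it. Figures used Python 3.11.15 and matplotlib 3.10.9, and promoters were aligned with Biopython 1.88.

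The iron genes and all lists were chosen with earlier results of these data known. Named genes were the iron genes, up to 3 higher and 3 lower called genes per list (else its 2 brightest) and the 5 nearest to Slc40a1, 37 in all, excluding clones, predicted genes, receptor segments, olfactory receptors and small RNAs from the nearest genes. Another 12 were named for their role or to complete a count, after their values were seen. Listed genes without a probe set of 1 symbol were not used. Alternatives covered the features fitted, the probe-set rule, the variance model, a filter on dim genes, normalization, the threshold and leaving out each array.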

Additional observations from a re-analysis of the deposited data

How the results depend on the processing

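The fall of Slc40a1 kept its direction under all 13 alternatives. Slc40a1 has 1 probe set and its groups did not overlap, which fixed this direction in advance in most of them. With all 4 arrays in the fit, Slc40a1 passed in all but the ordinary linear model (-1.89, adjusted p = 0.369). That model called 0 genes in either direction and thus 0 lower iron genes, with 2185 genes at an unadjusted p under 0.05. Elsewhere the adjusted p of Slc40a1 was at most 0.0108 with all 4 arrays. Its difference ran from -2.11 to -1.66 when 1 array was left out. Such fits assume that a lone array varies like the other group. The count of lower iron genes was 1 to 2 when 1 array was left out, the second being Steap3 without PBS replicate 3 (-0.52; range -0.52 to -0.06). Over all genes, the higher count was 286 at an adjusted p under 0.01, and the lower count was 63 with all probe sets, 58 at an adjusted p under 0.01 and 127 to 423 when 1 array was left out. Values near 0 changed sign. Quantile normalization again gave -0.0023 for Tfrc, -0.010 for Lcn2 and -0.0065 for Nfe2l2. Leaving out 1 array gave -0.052 to 0.054 for Ireb2, -0.024 to 0.054 for Tfrc, -0.24 to 5.55e-05 for Apoa1, -0.060 to 0.031 for Bach1, -0.41 to 0.11 for Cd79a, -0.34 to 0.089 for Cd79b, -0.072 to 0.20 for Hamp2, -0.011 to 0.023 for Lcn2 and -0.12 to 0.13 for Nfe2l2. With Ftl1 as the mean of its 5 probe sets, an alternative chosen after seeing the data, its difference was -0.27 (adjusted p = 0.181). No paired analysis was possible because the groups share only replicate number 1. Other background corrections were not run, since only RMA values were used.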
